A study of Homo sapiens with 12 samples.

Results

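The 10 genes described here belong to the integrated stress response, the programme of the transcription factor ATF4, and were taken by symbol out of the 25369 genes in the count and RPKM tables: ATF4, ATF5, DDIT3, CEBPB, PPP1R15A, TRIB3, CHAC1, ASNS, CTH and NUPR1. In this response, kinases that sense amino acid shortage, misfolded protein in the endoplasmic reticulum, double-stranded RNA or heme loss phosphorylate the translation factor eIF2alpha, general translation slows, and ATF4 mRNA is translated more. ATF4 protein pairs with other bZIP factors and drives genes of amino acid synthesis and import, tRNA charging and redox balance, together with DDIT3, TRIB3 and CHAC1, which are tied to cell death when stress lasts. Because ATF4 and ATF5 are set to a large degree by translation, their mRNA levels, measured here, are not a measure of their proteins.

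Poly(A)+ RNA was sequenced from RKO (colon carcinoma), A549 (lung adenocarcinoma) and H460 (lung large cell carcinoma), established human cell lines. RKO and A549 grew in DMEM and H460 in RPMI, so a difference between H460 and the other lines cannot be told apart from a difference in medium. Cells of each line stayed in normoxia or spent 24 h at 1% O2, with no other treatment named, and each of the 6 groups of line and oxygen had 2 independent biological replicates, 12 libraries in all. In bulk samples such as these, fewer cells of a kind and less RNA per cell cannot be told apart.

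Library totals ran from 27350424 to 41757584 counts. Levels below are CPM, counts scaled to a common library total, after TMM scaling within each line, and changes are log2 ratios of hypoxia to normoxia from edgeR's quasi-likelihood test with its standard error (SE) and Benjamini-Hochberg adjusted p over all genes tested in that line. A gene is called changed at an adjusted p under 0.1 with a change over 1.5-fold. The 5 hypoxia markers CA9, NDRG1, VEGFA, ADM and PDK1 summed to 162 to 335 CPM in the normoxic and 1175 to 2615 CPM in the hypoxic libraries. Replicates could differ, with sums of 1175 and 2615 CPM in hypoxic A549 and 290 and 162 CPM in normoxic RKO (replicate 1 first). Each marker was called higher in every line except ADM in A549 (log2 change 0.67, edgeR adjusted p = 0.324). Of 5 colon markers only CDX2 was seen in RKO (9.67 to 17.0 CPM), the other 4 staying at or below 0.06 CPM, and of 5 lung markers NAPSA reached 3.33 to 4.91 CPM in A549 while SFTPA1 was at 0 in all libraries. NKX2-1, a lung marker, had 0.0654 and 0 CPM in normoxic H460 and 3.33 and 3.12 CPM in hypoxic H460, and of the other 4 only NAPSA (0.393 to 0.669 CPM) exceeded 0.03 CPM in H460. Of 5 epithelial markers KRT18 was seen in all lines at 93.4 CPM or more, whereas CDH1 was at 0.0549 to 0.116 CPM in RKO and 0.383 to 0.574 CPM in H460, EPCAM did not exceed 0.459 CPM in H460, KRT8 did not exceed 13.5 CPM in RKO, and KRT19 did not exceed 1.45 CPM in RKO or 0.831 CPM in A549. PTPRC, CD3E and PECAM1, markers of blood and endothelial cells, did not exceed 0.1 CPM and VWF did not exceed 0.6 CPM, while CD68, which many tumour cells express, had 17.1 to 664 CPM.

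The best-known DNA element of this response is the composite C/EBP-ATF site with the core TGATGNAA, bound by a C/EBP-ATF4 pair. The 4 promoters below were picked after the results were seen. CHAC1 and ASNS are the pair of members that varied most closely together over the libraries. DDIT3 and ATF5 moved in opposite directions under hypoxia in RKO and H460. Whether a promoter match bears on these patterns was not tested. Each is the 250 bases before the first listed start of the gene, 5′ to 3′ on the gene's strand, from RefSeq on GRCh38.p14. Any TGATGNAA on either strand is in capitals. The listed starts were not compared with those of the genes as counted on hg19. Some of these bases, as for ATF5, may therefore lie inside the counted gene. They lie at chr15:40953221-40953470 (plus strand) for CHAC1, chr7:97872409-97872658 (minus) for ASNS, chr12:57520515-57520764 (minus) for DDIT3 and chr19:49928656-49928905 (plus) for ATF5.
CHAC1: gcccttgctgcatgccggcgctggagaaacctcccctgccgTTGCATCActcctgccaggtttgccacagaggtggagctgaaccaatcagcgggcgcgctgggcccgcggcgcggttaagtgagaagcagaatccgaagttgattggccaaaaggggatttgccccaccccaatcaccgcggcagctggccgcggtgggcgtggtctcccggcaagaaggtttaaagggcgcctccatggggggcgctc
ASNS: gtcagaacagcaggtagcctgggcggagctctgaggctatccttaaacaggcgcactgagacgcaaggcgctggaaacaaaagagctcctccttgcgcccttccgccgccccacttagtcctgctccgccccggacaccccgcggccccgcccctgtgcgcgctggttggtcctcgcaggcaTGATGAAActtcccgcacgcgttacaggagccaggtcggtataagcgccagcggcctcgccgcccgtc
DDIT3: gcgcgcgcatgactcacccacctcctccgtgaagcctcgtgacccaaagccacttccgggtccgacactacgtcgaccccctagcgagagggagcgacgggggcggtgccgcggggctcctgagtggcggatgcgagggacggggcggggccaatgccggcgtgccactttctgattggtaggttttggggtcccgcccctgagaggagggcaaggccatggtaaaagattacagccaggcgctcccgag
ATF5: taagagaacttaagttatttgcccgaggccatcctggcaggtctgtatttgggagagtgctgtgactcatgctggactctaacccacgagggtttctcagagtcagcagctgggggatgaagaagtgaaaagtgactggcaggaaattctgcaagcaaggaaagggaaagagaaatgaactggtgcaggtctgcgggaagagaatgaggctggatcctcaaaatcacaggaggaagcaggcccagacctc
CHAC1 held 1 match, TGATGCAA on the opposite strand, 209 to 202 bases before the start, and ASNS held 1 match, TGATGAAA on its own strand, 68 to 61 bases before the start. The other promoters shown held none within these 250 bases, and sequence further from the start was not searched. Among the 9 members with a promoter in the reference table (NUPR1 had none), 2 held the core, against 870 of 27305 promoters (3.19%) of the same length. The hypoxia-inducible factor core with the letters ACGTG on either strand was found in 1 of the 9, ATF4, against 18.7% of all promoters, and the GCGTG form in 5 of the 9, against 31.9%. These are matches of letters, not measured binding.

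On the deposited RPKM scale, which divides counts by gene length and library total, ATF4 was the highest of the 10 in all 6 groups. Its mean level in normoxia was 171 ± 18.5 RPKM in RKO, 157 ± 32.7 in A549 and 429.9 ± 15.3 in H460 (SD, n = 2). In RKO the next genes in normoxia were PPP1R15A at 100.3 ± 21.0 RPKM and ASNS at 47.7 ± 27.5 RPKM (SD, n = 2). In A549 TRIB3 (78.9 ± 71.4 RPKM) and ASNS (54.6 ± 51.1 RPKM) came next, with SDs so wide that the order below ATF4 could not be told in normoxia. In H460 ASNS (231 ± 0.0406 RPKM) and TRIB3 (121 ± 8.32 RPKM) followed, separated by more than their spread. NUPR1 was lowest in RKO and H460, whereas in A549 the lowest was CTH in normoxia (2.57 ± 2.03 RPKM) and CHAC1 in hypoxia (0.626 ± 0.200 RPKM).

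**Figure D1:**
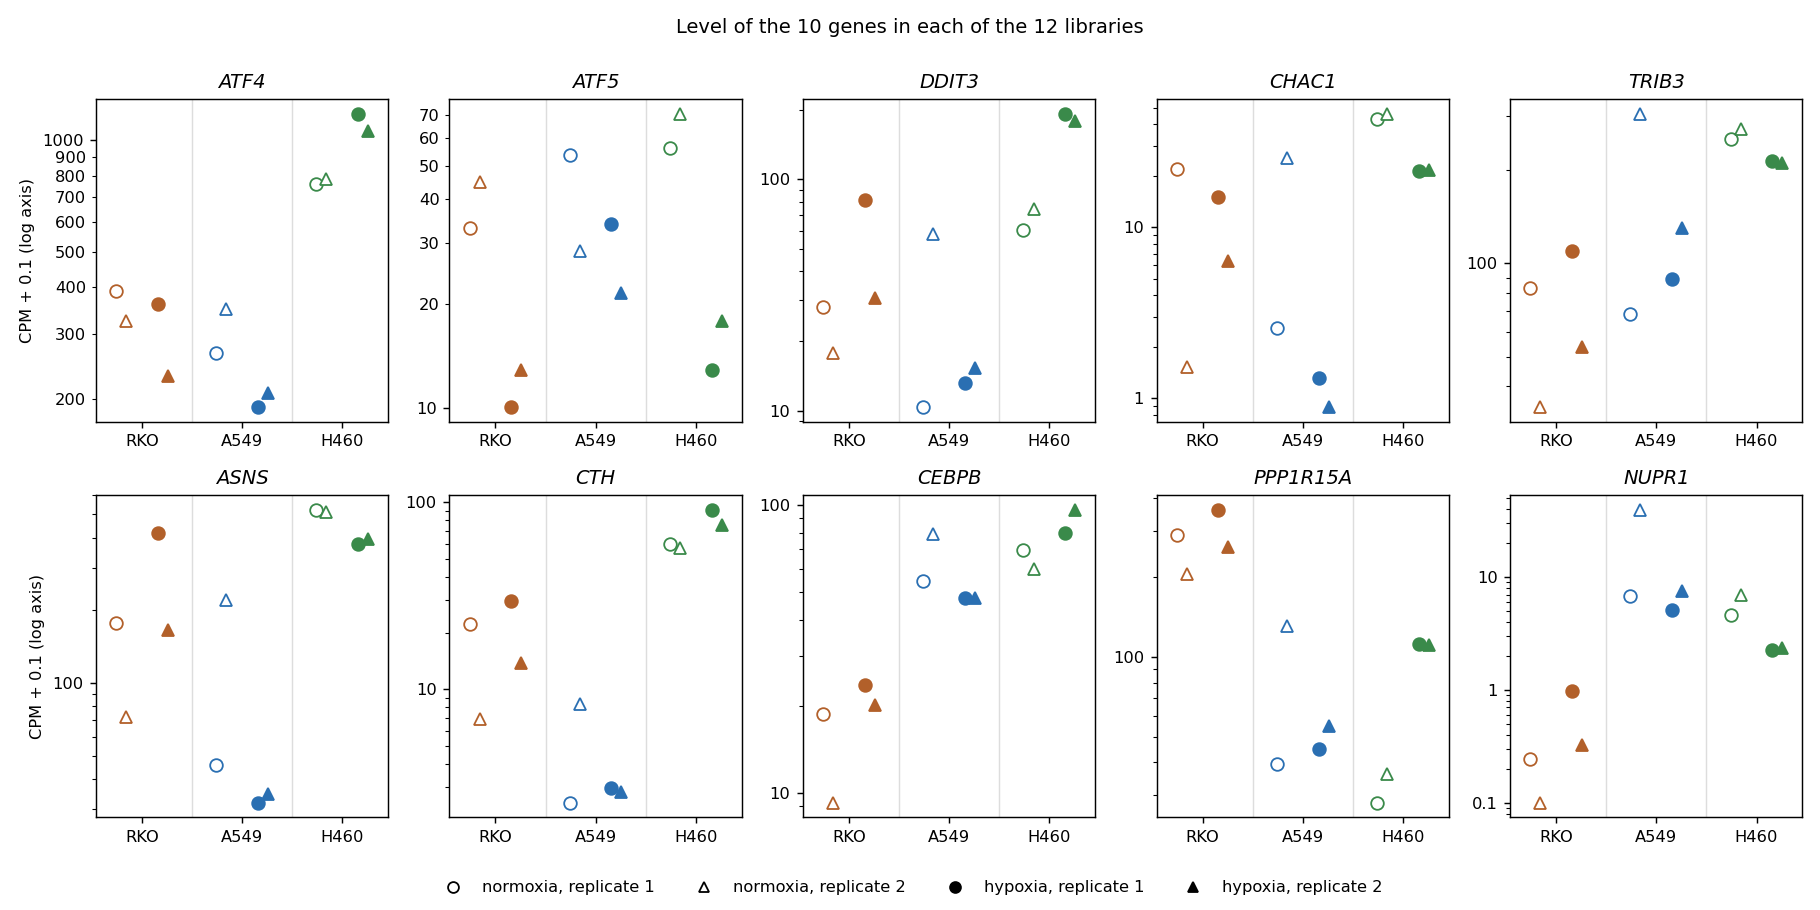
Each panel plots 1 gene, with the level in CPM plus 0.1 on a log axis and 1 symbol for each of the 12 libraries (open, normoxia; filled, hypoxia; circles, replicate 1; triangles, replicate 2), TMM-scaled within each line. The replicate 2 triangle of normoxic A549 stands above the other A549 libraries for CHAC1, DDIT3, ASNS, TRIB3, PPP1R15A, CTH and NUPR1, while the H460 pairs lie close together.

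Before any comparison of conditions, the replicates of a group were set side by side, because for these genes they were far apart in 3 of the 6 groups. In normoxic A549, 7 of the 10 genes were more than 2-fold higher in replicate 2 than in replicate 1, when 1.85% of all genes tested differed by that much in either direction. On the log2 scale CHAC1 was 3.11 higher (8.66-fold), NUPR1 2.48, DDIT3 2.44, ASNS 2.26, TRIB3 2.15, PPP1R15A 1.72 and CTH 1.60. ATF5 was the only member lower in that library. The wider pathway moved with them, with 20 of 67 other genes over 2-fold higher in replicate 2, among them ADM2 (2.98), CBS (2.17), PCK2 (2.09) and PHGDH (1.60), which were picked after their values were seen, and 1 over 2-fold lower (SDF2L1, -1.08). The transcripts of the 4 eIF2alpha kinases differed by -0.07 to 0.05 and that of HSPA5, the main chaperone of the endoplasmic reticulum, by 0.10. Other genes of endoplasmic reticulum stress differed more, with XBP1 (0.97) and HERPUD1 (0.42) higher and MANF (-0.64) and CRELD2 (-0.49) lower. These genes were picked after their values were seen, and kinase activity was not measured. The hypoxic A549 replicates differed by over 2-fold in 0 of 10 members, although their 5 hypoxia markers summed to 1175 and 2615 CPM.

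In RKO the order was the other way round and was present in both oxygen conditions. In normoxia 4 of 9 genes differed by over 2-fold, all lower in replicate 2: CHAC1 by -3.54, CTH by -1.64, ASNS by -1.29 and TRIB3 by -1.27 on the log2 scale, against 0.445% of all genes. In hypoxia 5 of 9 did so, DDIT3 by -1.40, ASNS by -1.34, CHAC1 by -1.18, CTH by -1.07 and TRIB3 by -1.02, against 1.19% of all genes. ATF5 alone was higher in replicate 2 in both conditions. In H460 no member differed by 2-fold between replicates in either condition. What set these libraries apart was not tested, and the results below are given with the library that they depend on.

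**Figure D2:**
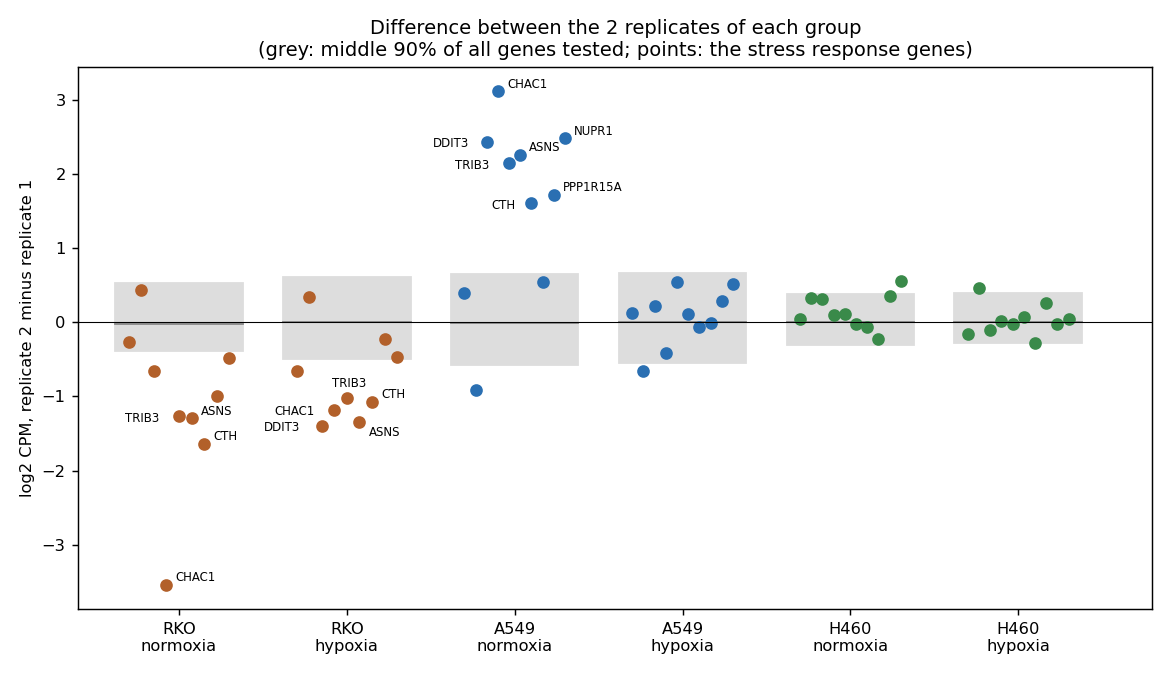
The vertical axis is log2 CPM of replicate 2 minus replicate 1, with 1 column for each of the 6 groups, 1 point for each gene, a grey box over the middle 90% of all genes tested and a line at their median. Members over 2-fold apart are named, and they are all above 0 in normoxic A549 and all below 0 in both RKO groups, with none in H460.

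The calls under hypoxia were partly shared between lines, with DDIT3 called higher and ATF5 lower in both RKO and H460, and CHAC1 lower in both A549 and H460. In RKO 3 of 9 tested members were called higher (DDIT3, ASNS and CEBPB) and 1 lower (ATF5), where 18.8% of the 12817 genes tested were called higher and 15.1% lower. DESeq2 called 1 of the 9 higher, CEBPB, and 1 lower, ATF5, against 17.6% and 14.4% of all genes, and the calls of DDIT3 (adjusted p = 0.148) and ASNS (adjusted p = 0.271) were lost. In A549 none of 10 was called higher and only CHAC1 was called lower, where 2.22% of 14251 genes were called higher and 0.456% lower. In A549 edgeR gave an unadjusted p under 0.05 for 5 of the 10, all of them lower in hypoxia, against 16.6% of all genes, and DESeq2 called 0 higher and 1 lower, ATF4, against 4.27% and 1.85% of all genes. In H460 DDIT3 and PPP1R15A were called higher and ATF5, CHAC1 and NUPR1 lower, 2 and 3 of 10, where 24.6% of 14080 genes were called higher and 27.3% lower. The members had a median log2 change of 0.48 (RKO), -0.85 (A549) and 0.07 (H460), beside 0.01, -0.01 and -0.04 for all genes tested. With the replicate number as a block the A549 count of lower members rose to 5 of 10 and that of higher ones stayed at 0, while the shares over all genes rose to 5.07% lower and 8.34% higher. Without normoxia replicate 1 of RKO 7 members were called higher (16.2% of all genes), and without hypoxia replicate 1 the count was 0 (17.6% of all genes), so the RKO count rests on single libraries. In TMM-scaled CPM both hypoxic libraries lay above both normoxic ones for 2 of the 9 tested RKO members (35.2% of all genes), for 0 of 10 A549 members (25.1%) and for 5 of 10 H460 members (41.8%). They lay below them for 1 RKO member (35.1% of all genes), 4 A549 members (24.7%) and 5 H460 members (44.6%).

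**Figure D3:**
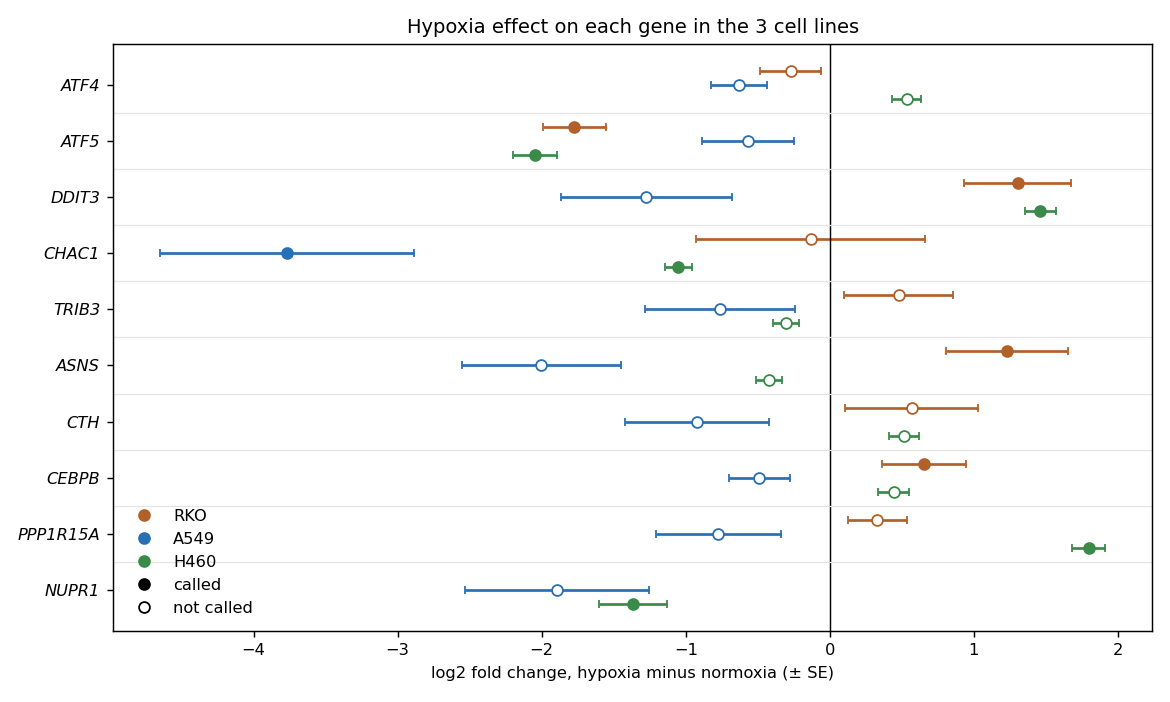
The horizontal axis is the log2 change of hypoxia against normoxia from edgeR, with 1 row for each gene, 1 coloured point for each line, bars of 1 SE, and filled points for called changes. NUPR1 has no RKO point because it was not tested there. The ATF5 points lie left of 0 in all lines, all 10 A549 points lie left of 0, and for every gene the H460 bar is the shortest.

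ATF4 itself (hg19 chromosome 22, 39916564 to 39918691, plus strand) had 391 and 324 CPM in normoxic RKO and 362 and 230 CPM in hypoxic RKO. The RKO groups overlapped, and the log2 change of -0.27 ± 0.21 (SE) had an adjusted p of 0.338 in edgeR's test. In A549 it had 266 and 350 CPM in normoxia and 190 and 208 CPM in hypoxia, so the hypoxic libraries lay below the normoxic ones without overlap. The A549 log2 change was -0.63 ± 0.19 (SE) with an adjusted p of 0.170 by edgeR, and 0.00121 with the replicate block, where the change was -0.62 and ATF4 was called lower. In H460 it rose from 760 and 783 CPM to 1175 and 1058 CPM, above normoxia in both libraries. The H460 change of 0.53 ± 0.10 (SE, edgeR adjusted p = 0.000416) was 1.45-fold and so short of the 1.5-fold limit.

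ATF5 (chromosome 19, 50431959 to 50437193, plus strand), a bZIP factor that is itself an ATF4 target, was called lower in both RKO and H460. Its levels in RKO were 33.0 and 44.8 CPM in normoxia against 9.98 and 12.8 CPM in hypoxia. Those in H460 were 56.2 and 70.4 CPM against 12.8 and 17.8 CPM, again without overlap. The log2 change was -1.77 ± 0.22 (SE, adjusted p = 0.000266) in RKO, 3.42-fold lower, and -2.05 ± 0.15 (SE, adjusted p = 2.62e-07) in H460, 4.13-fold lower, by edgeR. In A549 the values were 53.6 and 28.3 CPM against 33.9 and 21.4 CPM and overlapped (log2 change -0.57 ± 0.32 SE, edgeR adjusted p = 0.415). ATF5 was called lower in A549 without normoxia replicate 2 (-0.96, adjusted p = 0.0997) or hypoxia replicate 1 (-0.95, adjusted p = 0.0272), and the change was -0.03 without normoxia replicate 1 and -0.28 without hypoxia replicate 2.

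DDIT3 (chromosome 12, 57910371 to 57914300, minus strand) encodes CHOP, the factor tied to death under prolonged stress. RKO libraries had 28.0 and 17.6 CPM in normoxia and 81.7 and 30.7 CPM in hypoxia. All hypoxic RKO values were above the normoxic ones, but the hypoxic pair differed by more than the nearest gap between groups. The edgeR log2 change was 1.30 ± 0.37 (SE, adjusted p = 0.0183, 2.47-fold), and it was 0.46 (adjusted p = 0.152) without hypoxia replicate 1. H460 libraries had 60.0 and 74.5 CPM in normoxia and 192 and 179 CPM in hypoxia, a tight separation with a log2 change of 1.46 ± 0.11 (SE, edgeR adjusted p = 2.54e-07, 2.75-fold). A549 libraries had 10.3 and 57.8 CPM in normoxia and 13.0 and 15.2 CPM in hypoxia. The hypoxic A549 values thus lay between the normoxic ones, the log2 change of -1.27 ± 0.59 (SE, edgeR adjusted p = 0.325) becoming 0.45 without normoxia replicate 2. With the replicate block it was -0.82 (adjusted p = 0.0413, called lower), although the change was 0.33 within replicate number 1 and -1.90 within number 2.

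CEBPB (chromosome 20, 48807120 to 48809227, plus strand), a C/EBP factor and dimer partner of ATF4, had 18.7 and 9.17 CPM in normoxic RKO and 23.7 and 20.1 CPM in hypoxic RKO. The groups did not overlap, and the log2 change of 0.65 ± 0.29 (SE, edgeR adjusted p = 0.0979, 1.57-fold) was just inside the limits. It fell outside them without normoxia replicate 2 (0.23) or hypoxia replicate 1 (0.56, adjusted p = 0.180). In A549 it had 54.2 and 78.8 CPM in normoxia and 47.5 and 47.3 CPM in hypoxia, lower without overlap but not called (-0.49 ± 0.21 SE, edgeR adjusted p = 0.291). In H460 it had 69.7 and 59.8 CPM in normoxia and 79.8 and 96.0 CPM in hypoxia, higher without overlap at a log2 change of 0.44 ± 0.11 (SE, edgeR adjusted p = 0.00332), under 1.5-fold.

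PPP1R15A (chromosome 19, 49375649 to 49379319, plus strand) encodes GADD34, the phosphatase subunit that removes the phosphate from eIF2alpha and so closes the response. In H460 it had 28.0 and 36.0 CPM in normoxia and 112 and 111 CPM in hypoxia. Of the 10 genes it had the largest rise in that line, with a log2 change of 1.80 ± 0.11 (SE, edgeR adjusted p = 7.32e-08, 3.48-fold). RKO started far higher, at 288 and 206 CPM in normoxia against 360 and 261 CPM in hypoxia, and the groups overlapped (0.33 ± 0.21 SE, edgeR adjusted p = 0.228). A549 had 39.2 and 130.2 CPM in normoxia and 44.6 and 54.5 CPM in hypoxia, which overlapped too (-0.77 ± 0.43 SE, edgeR adjusted p = 0.408, and 0.34 without normoxia replicate 2).

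TRIB3 (chromosome 20, 361308 to 378203, plus strand), a pseudokinase that binds and restrains ATF4, was called in no line. RKO libraries had 83.3 and 34.3 CPM in normoxia and 109.9 and 53.8 CPM in hypoxia, A549 libraries 68.4 and 304 CPM against 89.3 and 130.4 CPM. In RKO and in normoxic A549 the replicates were further apart than the group means, with log2 changes of 0.48 ± 0.38 and -0.76 ± 0.52 (SE, edgeR adjusted p = 0.345 and 0.505). H460 libraries had 253 and 273 CPM in normoxia and 215 and 211 CPM in hypoxia, lower without overlap by a log2 change of -0.30 ± 0.09 (SE, edgeR adjusted p = 0.00832), under 1.5-fold.

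CHAC1 (chromosome 15, 41245636 to 41248717, plus strand), the enzyme that degrades glutathione and a strongly induced ATF4 target, had the largest replicate difference of the members in normoxic RKO and in normoxic A549. A549 libraries had 2.47 and 25.2 CPM in normoxia (101 and 1007 counts) and 1.22 and 0.790 CPM in hypoxia (50 and 27 counts). Both hypoxic values were below both normoxic ones, and the log2 change of -3.77 ± 0.88 (SE, edgeR adjusted p = 0.0868, 13.6-fold) was the only call in A549. Without normoxia replicate 2 the change was -1.28 (adjusted p = 0.213), and with the library total as the only scaling the adjusted p was 0.133. H460 libraries had 43.0 and 46.0 CPM in normoxia and 21.4 and 21.6 CPM in hypoxia, a separation of -1.05 ± 0.10 (SE, edgeR adjusted p = 1.27e-06, 2.07-fold lower). RKO libraries had 21.9 and 1.43 CPM in normoxia and 14.9 and 6.29 CPM in hypoxia. The RKO hypoxic values lay between the normoxic ones, so the direction was not settled (log2 change -0.13 ± 0.80 SE, edgeR adjusted p = 0.913), and it turned to 0.55 with the replicate block (adjusted p = 0.0899, under 1.5-fold) and to 2.89 without normoxia replicate 1 (adjusted p = 0.000624).

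ASNS (chromosome 7, 97481429 to 97501854, minus strand), asparagine synthetase, went in opposite directions in RKO and A549. RKO libraries had 178 and 72.2 CPM in normoxia and 420.0 and 165 CPM in hypoxia. The groups overlapped, since replicate 2 in hypoxia was below replicate 1 in normoxia, although hypoxia was higher within each replicate number. The log2 change was 1.23 ± 0.43 (SE, edgeR adjusted p = 0.0418, 2.34-fold), and 0.43 (not called) without hypoxia replicate 1. A549 libraries had 45.6 and 219.7 CPM in normoxia and 31.8 and 34.5 CPM in hypoxia, lower without overlap. That change of -2.00 ± 0.55 (SE) was not called by edgeR (adjusted p = 0.133) and was -0.46 without normoxia replicate 2. It was called with the replicate block (-1.60, adjusted p = 1.11e-05), although the change was -0.52 within replicate number 1 and -2.65 within number 2. H460 libraries had 523 and 512 CPM in normoxia and 376 and 396 CPM in hypoxia, lower without overlap but under 1.5-fold (-0.42 ± 0.09 SE, edgeR adjusted p = 0.00117).

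CTH (chromosome 1, 70876901 to 70905534, plus strand), the enzyme that makes cysteine from cystathionine, was called in no line by the unblocked test. RKO libraries had 22.3 and 6.83 CPM in normoxia and 29.4 and 13.7 CPM in hypoxia, overlapping but higher within each replicate number. The RKO log2 change was 0.57 ± 0.46 (SE, edgeR adjusted p = 0.359), and 0.69 (adjusted p = 0.00150, called higher) with the replicate block. A549 libraries had 2.37 and 8.21 CPM in normoxia and 2.86 and 2.72 CPM in hypoxia, overlapping (-0.92 ± 0.50 SE, edgeR adjusted p = 0.395, and 0.24 without normoxia replicate 2). H460 libraries had 59.5 and 56.8 CPM in normoxia and 91.2 and 75.1 CPM in hypoxia, higher without overlap at 0.52 ± 0.10 (SE, edgeR adjusted p = 0.000753), under 1.5-fold.

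NUPR1 (chromosome 16, 28548662 to 28550495, minus strand), a small stress-induced chromatin protein, was close to absent in RKO, with 5 and 0 counts in normoxia and 34 and 8 counts in hypoxia, too few to be tested there. A549 libraries had 6.70 and 39.6 CPM in normoxia and 5.06 and 7.43 CPM in hypoxia. These overlapped, with a log2 change of -1.89 ± 0.64 (SE, edgeR adjusted p = 0.205) that was -0.10 without normoxia replicate 2. It was called lower with the replicate block (-1.45, adjusted p = 0.000388), although the change was -0.37 within replicate number 1 and -2.34 within number 2. H460 libraries had 4.51 and 6.89 CPM in normoxia and 2.18 and 2.26 CPM in hypoxia, lower without overlap (-1.36 ± 0.24 SE, edgeR adjusted p = 0.000249, 2.58-fold).

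In H460 the 10 genes split evenly, with 5 above normoxia in both hypoxic libraries (ATF4, DDIT3, CTH, CEBPB and PPP1R15A) and 5 below (ATF5, CHAC1, TRIB3, ASNS and NUPR1), in a line where groups that do not overlap were usual. The choice of scaling had its largest effect in this line. Scaling by library total in place of TMM moved the median log2 change of all H460 genes by -0.35, and the share of called genes that were higher went from 47.5% (3467 higher, 3837 lower) to 26.5% (2075 higher, 5758 lower). All 10 members kept their direction under it, and TRIB3 (-0.66) and ASNS (-0.77) were then called lower as well. The smaller rises shrank, to 0.18 for ATF4 (edgeR adjusted p = 0.0646), 0.16 for CTH (adjusted p = 0.150) and 0.09 for CEBPB (adjusted p = 0.480). In RPKM, which has no TMM scaling, CEBPB overlapped, with 37.0 and 32.4 RPKM in normoxia and 32.8 and 41.1 RPKM in hypoxia.

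Whether hypoxia acted differently between lines was tested as the interaction in 1 edgeR fit of all 12 libraries. That fit shares 1 spread per gene over the lines, although the H460 replicates lay closer together. For DDIT3 the SE of the H460 change was 0.11 in the H460 fit and 0.55 in the shared fit. Between RKO and A549, 4 of the 9 genes tested in both passed, against 14.6% of 15595 genes. The RKO change minus the A549 change was 3.28 ± 0.80 for ASNS (SE, edgeR adjusted p = 0.0245), 2.63 ± 0.80 for DDIT3 (adjusted p = 0.0573), 1.19 ± 0.37 for CEBPB (adjusted p = 0.0600) and -1.16 ± 0.41 for ATF5 (adjusted p = 0.0958) on the log2 scale. Without normoxia replicate 2 of A549 the DDIT3 difference was 0.90 (adjusted p = 0.343), the CEBPB difference 0.89 (adjusted p = 0.174) and the ATF5 difference -0.77 (adjusted p = 0.239), none of them passing. ASNS did not pass without hypoxia replicate 1 of RKO (2.44, adjusted p = 0.102), and ATF5 passed in only 2 of the 12 fits that leave out 1 library. The replicate block raised the count for this pair to 8, against 26.9% of all genes. Between RKO and H460 only ATF4 (-0.76 ± 0.29 SE, edgeR adjusted p = 0.0607) and PPP1R15A (-1.42 ± 0.53, adjusted p = 0.0574) of 9 passed, against 37.6% of all genes, or 4 with the replicate block, where 45.9% of all genes passed. ATF4 passed in 7 and PPP1R15A in 8 of the 12 fits that leave out 1 library. Between A549 and H460, 5 of 10 passed, against 36.0% of all genes. These were PPP1R15A (-2.58 ± 0.54 SE, edgeR adjusted p = 0.00349), ATF4 (-1.17 ± 0.29, adjusted p = 0.00886), ATF5 (1.48 ± 0.41, adjusted p = 0.0162), DDIT3 (-2.74 ± 0.79, adjusted p = 0.0201) and CEBPB (-0.93 ± 0.36, adjusted p = 0.0686), as A549 minus H460. Without normoxia replicate 2 of A549 the DDIT3 difference was -1.0 (adjusted p = 0.181) and the CEBPB difference to -0.63 (adjusted p = 0.227). CHAC1, TRIB3 and CTH passed in none of the 3 pairs without the block. With it, CHAC1 (3.68, edgeR adjusted p = 0.0348), TRIB3 (0.995, adjusted p = 0.0984), CTH (1.46, adjusted p = 0.0456) and PPP1R15A (0.92, adjusted p = 0.0940) newly passed between RKO and A549. TRIB3 (0.87, adjusted p = 0.0942) and ASNS (1.69, adjusted p = 0.0171) did so between RKO and H460. CTH (-1.24, adjusted p = 0.0456) and ASNS (-1.19, adjusted p = 0.0824) did so between A549 and H460.

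The starting levels in normoxia were compared in the same fit. All 9 genes tested in both differed between RKO and H460, where 61.9% of all genes did. ATF4 was lower in RKO by a log2 difference of -1.36 ± 0.21 (SE, edgeR adjusted p = 3.96e-05), ASNS by -2.30 ± 0.58 (adjusted p = 0.00260), TRIB3 by -2.41 ± 0.55 (adjusted p = 0.00129) and CEBPB by -2.47 ± 0.27 (adjusted p = 1.61e-06). PPP1R15A went against the rest and was higher in RKO by 2.70 ± 0.40 (SE, edgeR adjusted p = 2.96e-05). Between A549 and H460, 8 of 10 differed (52.1% of all genes), with CTH lower in A549 by -3.61 ± 0.55 (SE, edgeR adjusted p = 6.35e-05), ATF4 lower by -1.47 ± 0.21 (adjusted p = 2.81e-05) and PPP1R15A higher by 1.25 ± 0.38 (adjusted p = 0.0112). TRIB3 and CEBPB did not pass between these lines, and without normoxia replicate 2 of A549 the PPP1R15A difference was 0.14 and the NUPR1 difference went from 1.87 to 0.07, neither passing. Between RKO and A549, 4 of 9 differed (60.2% of all genes): CEBPB (-2.36), TRIB3 (-1.77), PPP1R15A (1.44) and CTH (1.36), as log2 RKO minus A549. TRIB3 did not pass without normoxia replicate 2 of A549 (-0.31), and CTH did not without normoxia replicate 1 of RKO (0.26).

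To see which members varied together, log2 CPM was centred within each line and correlated over the 12 libraries, which share conditions and, within a line, scaling, so the values are a description. Among the 36 pairs of the 9 members tested in all lines the median Pearson r was 0.65, and 21 pairs were over 0.5. The closest pair was CHAC1 with ASNS (r = 0.91). The replicate differences described above enter these values. In normoxic A549 both genes were far higher in replicate 2 (CHAC1 25.2 against 2.47 CPM, ASNS 219.7 against 45.6 CPM). In normoxic RKO both were higher in replicate 1 (21.9 against 1.43 CPM and 178 against 72.2 CPM). How far r depends on these libraries was not tested. ATF5 stood apart, with all 7 negative pairs involving it and the lowest with PPP1R15A (r = -0.74). ATF4 correlated with the members other than ATF5 at 0.42 to 0.72.

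**Figure D4:**
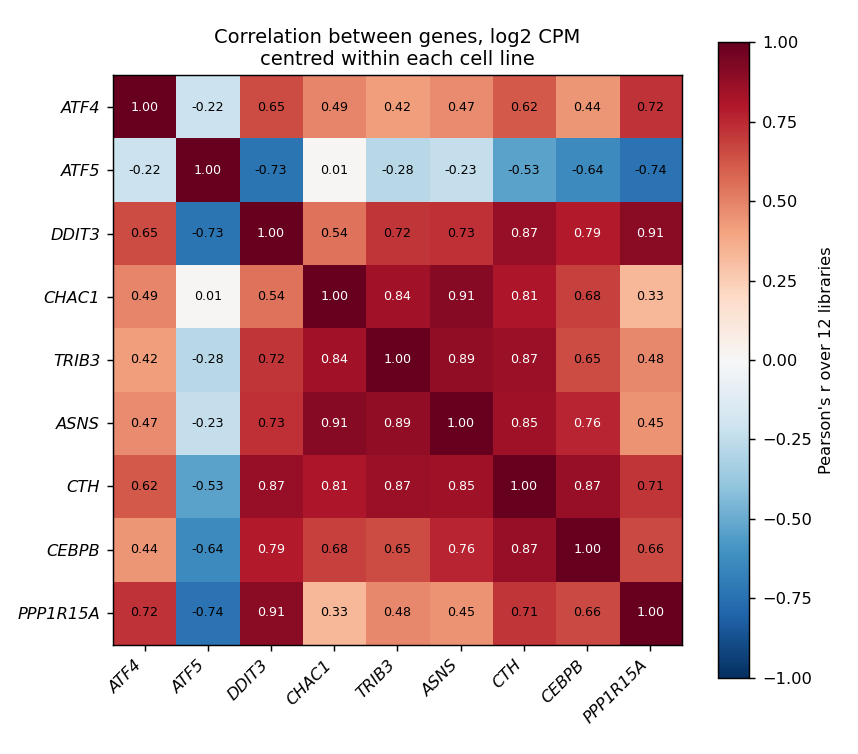
The grid shows Pearson r of log2 CPM centred within each line, over the 12 libraries, for each pair of the 9 genes tested in all 3 lines, with colour from -1 to 1. The ATF5 row and column hold the negative values, and CHAC1 with ASNS holds the highest, 0.91.

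By the same measure, the genes outside the 10 whose profile was most like the members' mean profile, among 9764 genes with at least 10 CPM on average, were CEBPG (r = 0.96), TUBE1 (0.95), SESN2 (0.94), CARS (0.93), XBP1 (0.93) and OSGIN2 (0.93). Each of them was also higher in replicate 2 than in replicate 1 of normoxic A549, for example CEBPG (151 against 59.8 CPM), SESN2 (53.5 against 22.8) and CARS (190 against 91.8). CEBPG is a C/EBP partner of ATF4, SESN2 encodes sestrin 2, which restrains the growth kinase complex mTORC1, and CARS is the cysteine tRNA synthetase. ATF4 alone was most like ATAD1 (0.96), RCHY1 (0.96) and SDE2 (0.93), and CHAC1 alone most like UPP1 (0.96), SESN2 (0.91) and PHGDH (0.90).

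The other 68 genes, in 7 lists, were those of the pathway together with the 12 genes of the neighbouring ATF6 and XBP1 arm. In RKO they gave 14 calls higher and 5 lower of 63 tested, and in A549 1 higher and 5 lower of 67. In H460 they gave 16 higher and 21 lower of 67. The ATF6 and XBP1 arm held 3 of the higher calls in RKO, and 7 of the higher and 1 of the lower calls in H460. With the replicate block the A549 counts became 2 higher and 28 lower. The shares over all genes were 18.8% higher and 15.1% lower in RKO, and 24.6% and 27.3% in H460. In A549 they were 2.22% and 0.456%, or 8.34% and 5.07% with the block. The counts by list below stand beside these shares. In normoxic A549, 51 of the 67 genes were higher in replicate 2 than in replicate 1. They included the called PSAT1 (129 and 294 CPM, replicate 1 first), SLC7A11 (463 and 810), MARS (199 and 403) and YARS (130 and 211), but not GDF15 (26.7 and 21.2). The A549 counts and medians below thus depend in part on that library. The RKO replicates leaned the other way, with 13 of 63 genes higher in replicate 2 in normoxia and 17 of 63 in hypoxia. The RKO counts below were not separated from this difference. Amino acid transporters were called lower in 7 of 9 and higher in 0 of 9 in H460, with a median log2 change of -1.08, led by SLC7A11, the cystine importer (-2.03 ± 0.10 SE, edgeR adjusted p = 1.02e-08), and SLC43A1 (-2.01 ± 0.24, adjusted p = 1.39e-05). In A549 1 of 9, SLC7A11 (-1.48 ± 0.34 SE, edgeR adjusted p = 0.0854), was called lower, at a median of -0.84. In RKO SLC6A9 (0.89) was called higher, although lower in H460 (-1.90), and SLC1A5, the glutamine carrier, lower (-0.63). Amino acid and one-carbon synthesis gave 6 lower and 2 higher of 12 in H460 (median -0.62), with PSAT1 (-1.69 ± 0.10 SE, edgeR adjusted p = 5.31e-08) and PSPH (-1.58) of the serine pathway at the head. PSAT1 was also the only gene of that list called in A549 (-1.70 ± 0.37 SE, edgeR adjusted p = 0.0725, list median -0.78), while in RKO PCK2 (0.71) was higher and ALDH18A1 (-0.65) lower of 10. PCK2 was called lower in H460 (-1.41).

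The aminoacyl-tRNA synthetases were called lower in 4 of 12 in H460, headed by MARS (-1.08) and NARS (-0.82), and in 2 of 12 in A549, MARS (-1.33) and YARS (-1.11), with AARS higher (0.81) and TARS lower (-0.74) in RKO. Stress effectors and secreted factors were called higher in 5 of 7 in RKO at a median of 0.81. They were headed by DDIT4, an inhibitor of mTORC1 (2.04 ± 0.49 SE, edgeR adjusted p = 0.00836), and the stress cytokine GDF15 (1.45 ± 0.19, adjusted p = 0.000431). The replicates of DDIT4 were far apart, at 36.0 ± 31.0 CPM in normoxic and 148 ± 59.7 CPM in hypoxic RKO (SD, n = 2). The study describes DDIT4 as a target of HIF1A. Which pathway moved it, or any other gene of this list in any line, was not tested. In H460 3 of 9 were higher at a median of 0.43, with ERO1L, the oxidase of disulfide formation (2.51 ± 0.11 SE, edgeR adjusted p = 4.13e-09), and VLDLR (1.81) the largest. In A549, where the list median was -0.26 and 1 gene was called in each direction of 9, GDF15 was lower (-1.53 ± 0.30 SE, edgeR adjusted p = 0.0517) and ERO1L higher (1.17). ERO1L was called higher in RKO as well (1.11), and so in every line. Among the bZIP partners of ATF4, ATF3 (2.02 ± 0.55 SE, edgeR adjusted p = 0.0151) and JDP2 (1.31) were higher in RKO. The ATF3 replicates were far apart too, at 11.5 ± 10.9 CPM in normoxic and 46.5 ± 22.6 CPM in hypoxic RKO (SD, n = 2). In H460 2 were higher and 2 lower of 7, with CEBPD (1.46) and CEBPA (-2.32) the largest. JDP2 was lower there (-0.92), against its direction in RKO. ATF3 was higher in both lines (1.14 in H460) and CEBPA lower in both (-0.61 in RKO). Of the eIF2alpha kinases, its own gene and its phosphatase, EIF2AK3, which encodes PERK, was higher in RKO (0.76) and in H460 (1.23), and EIF2S1, which encodes eIF2alpha, lower in both (-0.87 and -1.14), with no call among the 6 in A549.

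The ATF6 and XBP1 arm of the unfolded protein response, which works beside the ATF4 arm, was called higher in 3 of 12 in RKO (EDEM1 at 0.91 and HERPUD1 at 0.80 the largest), in 0 of 12 in A549, where the median was 0.29, and in 7 of 12 in H460, with 1 lower and a median of 0.98. HERPUD1 (2.24 ± 0.11 SE, edgeR adjusted p = 1.09e-08) and DNAJB9 (2.18 ± 0.16, adjusted p = 1.79e-07), both of protein quality control in the endoplasmic reticulum, had the largest rises in H460.

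**Figure D5:**
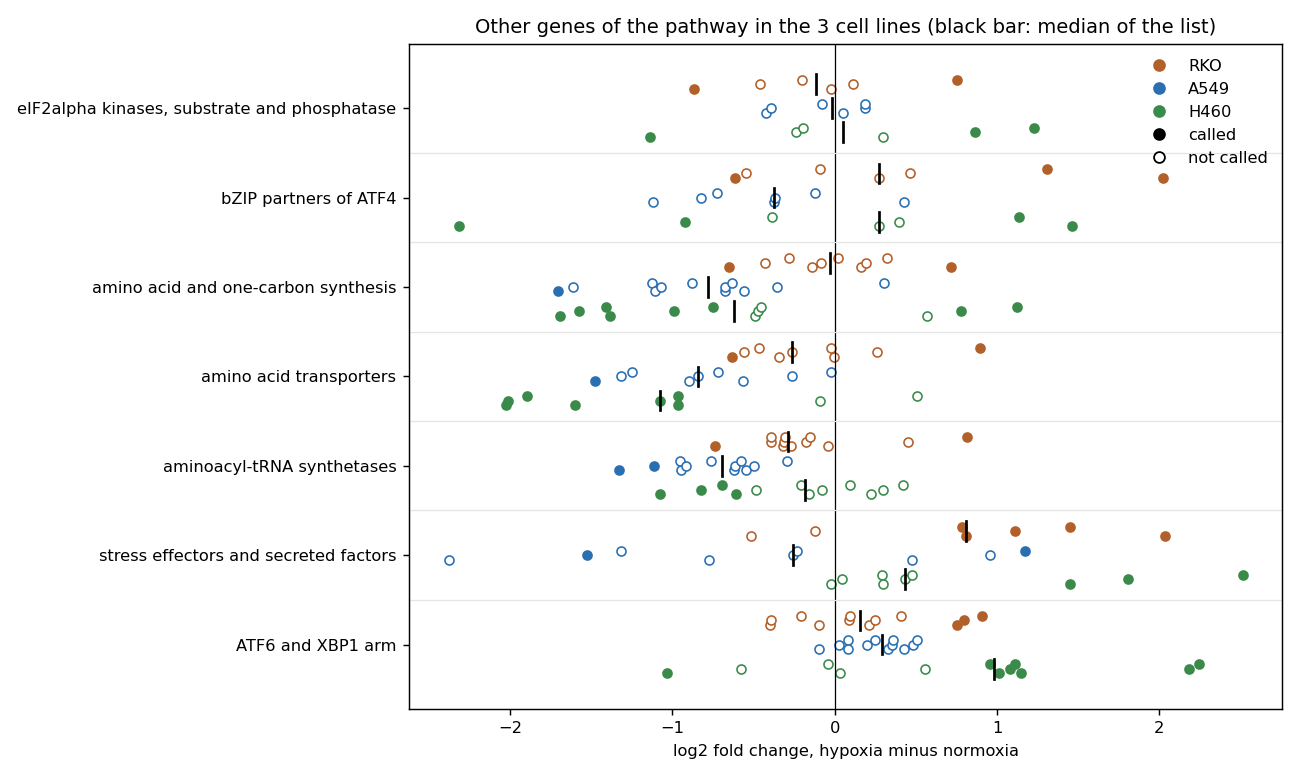
Each point is the log2 change of 1 gene of the pathway in hypoxia, by list (rows) and by line (colours), filled where called, with a black bar at the list median. In H460 the transporter list centres on -1.08 and the ATF6 and XBP1 list on 0.98, whereas in A549 the transporter, synthesis and tRNA synthetase lists centre on -0.84, -0.78 and -0.69. The A549 values include normoxia replicate 2, in which 51 of the 67 genes tested were above replicate 1.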

How the data were processed

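Poly(A)+ RNA of 12 libraries was sequenced as strand-specific (Illumina TruSeq) libraries. Per the labels and the study's methods, the authors trimmed reads, aligned them to GRCh37/hg19 with TopHat2 2.0.13, removed low mapping qualities, and deposited HTSeq 0.6.1 raw counts per gene over exons. The RPKM values deposited by the authors equalled each count over gene length and library total, with no scaling for composition. Deposited starts were taken as 0-based (start plus 1 matched an annotated transcript start for 44.4% of 21538 genes, the start itself for 4.65%), and coordinates are printed 1-based.

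Groups came from the sample titles. The test covered genes that exceeded 0.5 CPM in 2 or more of a line's libraries and used edgeR 4.0.16 (quasi-likelihood test, TMM factors, R 4.3.3) in each line, and in 1 fit of all 12 libraries for differences between lines (adjusted p under 0.1, and over 1.5-fold except for interactions). CPM was computed with the line's TMM factors, and its log2 had 0.5 added for replicate differences and correlations. DESeq2 1.42.0, limma 3.58.1 on log2 RPKM, other scalings, no low-count filter, a replicate block and leaving out each library were alternatives. Scripts were tested on simulated data. The p-values of the unblocked fits measure the spread between 2 samples a group. The unassigned value columns numbered 0.

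Libraries with the same number deviated together (r over genes 0.356 in RKO, 0.371 in A549 and 0.145 in H460, all over 0.1). The numbers were therefore taken to pair the samples in the blocked fits, while the main test has no block. The other pathway genes in A549 did not keep this order, with 51 of 67 higher in replicate 2 in normoxia and 16 of 67 in hypoxia. The labels do not say what a number shares, and the blocked fit of a line leaves 1 residual degree of freedom per gene. Its p-values therefore rest largely on the spread estimated over all genes, not on how closely the 2 pairs of a gene match. Members, gene lists and alternatives were chosen with earlier results of these data known. Genes named outside the 10 members and the 5 hypoxia markers were at most the 2 called genes of largest change in each list and line, and those with the most similar profile. SLC6A9, PCK2, JDP2, ATF3, CEBPA and ERO1L were also named in a further line where they were called, picked after their values were seen. Markers of cell type and the replicate differences of other pathway genes are named beside them.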

Additional observations from a re-analysis of the deposited data

Results flagged for a closer look

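The hypoxia effect of some members differed between lines by the interaction test in edgeR's fit of all 12 libraries, and these differences are on the log2 scale. As RKO minus A549 they were -1.16 for ATF5, 2.63 for DDIT3, 3.28 for ASNS and 1.19 for CEBPB. Over the 12 fits that leave out 1 library, ASNS ranged from 1.74 to 4.08, passing in 11, and DDIT3 from 0.90 to 3.40, passing in 7. CEBPB passed in 8 and ATF5 in 2 of them. As RKO minus H460 the differences were -0.76 for ATF4 and -1.42 for PPP1R15A, and neither passed with the library total as the only scaling (-0.38 and -1.03) or without normoxia replicate 1 of RKO (-0.60 and -1.15).

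As A549 minus H460 the differences were -1.17 for ATF4, 1.48 for ATF5, -2.74 for DDIT3, -0.93 for CEBPB and -2.58 for PPP1R15A. ATF4, ATF5 and PPP1R15A passed in each of the 12 fits that leave out 1 library, whereas DDIT3 did not pass without normoxia replicate 2 of A549 (-1.0, adjusted p = 0.181) and CEBPB did not without normoxia replicate 2 of A549 (-0.63, adjusted p = 0.227), passing in 6 of the 12.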

How the results depend on the processing

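With 2 libraries a group, the RKO and A549 results depended on single libraries more than those of H460, and the cause was not tested. Over the fits that leave out 1 library, where a group left with 1 library was assumed to vary like the others, members called higher in RKO numbered 0 to 7 and lower 1 to 2, members called lower in A549 1 to 8 and members called higher in H460 2 to 4. The other pathway genes called higher numbered 9 to 19 in RKO and 1 to 4 in A549, and lower 2 to 33 in A549. The log2 changes that turned sign were those of CHAC1 (-1.04 to 2.89), CTH (-0.054 to 1.66), TRIB3 (-0.10 to 1.26) and ATF4 (-0.61 to 0.017) in RKO and of CTH (-1.56 to 0.24), DDIT3 (-2.04 to 0.45), PPP1R15A (-1.39 to 0.34) and TRIB3 (-1.47 to 0.68) in A549. Members whose hypoxia effect differed numbered 0 to 8 between RKO and A549, 0 to 3 between RKO and H460 and 3 to 8 between A549 and H460, and members whose normoxia level differed between A549 and H460 5 to 8.

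With the replicate number as a block, 5 members were called lower in A549, and 2 other pathway genes were called higher and 28 lower there. The blocked interaction passed for 8 members between RKO and A549 and 4 between RKO and H460. The blocked RKO change of CHAC1 was 0.55. The block changed the call of the RKO CTH and of the A549 ATF4, DDIT3, ASNS and NUPR1 and of no other member within a line. DESeq2 called 1 member higher in RKO, 18 other pathway genes lower in A549, 1 member different between RKO and H460, and 5 members at different normoxia levels between A549 and H460. With library totals alone, 2 other pathway genes were lower in RKO and 2 in A549, 0 members lower in A549 and 5 lower in H460, and 1 interaction passed between RKO and H460. With no low-count filter, 3 members and 18 other pathway genes were lower in A549, and 8, 5 and 8 interactions passed for RKO with A549, then RKO with H460, then A549 with H460. With the adjusted p alone, 12 other pathway genes were lower in RKO, 5 members were higher and 5 lower in H460, and 29 other pathway genes were higher there. In limma on log2(RPKM + 0.1), 2 other pathway genes were lower in RKO and 1 in A549, 0 members lower in A549 and 5 in H460, the RKO change of CHAC1 was 0.82, and 2, 1 and 3 interactions passed in the same order. In limma on log2(RPKM + 1) these were 2 and 1, 0 and 5, 0.51, and 2, 0 and 3. The effect read from the fit of all 12 libraries gave 3 other pathway genes lower in RKO and 22 in A549, 4 members lower in A549 and 1 in H460. In A549 the counts over all genes (316 higher, 65 lower) were 608 and 263 by DESeq2 and 1189 and 723 with the block. Of the alternatives for single genes, 825 kept direction and side of the threshold, 48 newly passed, 98 no longer passed and 14 changed sign. Differences between lines entered this tally only for genes that passed in the main fit, so new passes among them are not counted.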
